A study of Homo sapiens with 9 samples.

Results

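The promoters of 8 proliferation genes, CCNA2, RRM2, CDK1, CCNB1, TOP2A, MKI67, UBE2C and E2F1, were examined in LNCaP, an established human prostate cancer cell line. Cells carried a lentiviral short hairpin against EZH2 (shEZH2) or the empty plko.1 vector (control), and were fixed 2 to 3 days after infection. Chromatin immunoprecipitation with sequencing was done in both for H3K27ac, EZH2 and H3K27me3, with 1 library per target and group. A further 3 samples, in cells with tagged EZH2 or of another control group, were not analysed here. A region or peak was assigned to a promoter when its nearest edge lay within 3 kb of the gene's transcription start. The hg19 starts were on chromosome 4 at 122745088 for CCNA2, chromosome 2 at 10262735 for RRM2, chromosome 10 at 62538089 for CDK1 and at 129924468 for MKI67, chromosome 5 at 68462837 for CCNB1, chromosome 17 at 38574202 for TOP2A, and chromosome 20 at 44441255 for UBE2C and at 32274210 for E2F1. This gave 25 of the 335291 regions in the 6 deposited lists: 10 H3K27ac regions in shEZH2 and 11 in control, 0 EZH2 peaks in shEZH2 and 4 in control, and 0 H3K27me3 regions in either group. The set was chosen by low H3K27ac tags per kb in shEZH2 relative to control at CCNA2 and RRM2, so the H3K27ac values below describe these promoters and do not test them.

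These genes act in the dividing cell. E2F1 is a transcription factor that switches on genes for DNA synthesis when the retinoblastoma protein releases it. RRM2 is a subunit of ribonucleotide reductase, which makes the building blocks of DNA, and CCNA2 encodes cyclin A, which drives the replication phase and the entry into mitosis. CDK1 is the kinase of mitosis and CCNB1 its partner cyclin B. UBE2C is the ubiquitin-conjugating enzyme that works with the anaphase-promoting complex to clear cyclins, TOP2A is the topoisomerase that untangles chromosomes, and MKI67 encodes the Ki-67 protein, a widely used marker of proliferation. H3K27ac marks active promoters and enhancers. EZH2 is the methyltransferase of Polycomb repressive complex 2 and puts H3K27me3, found on silenced chromatin, on the same residue. The title of the series asks whether EZH2 also activates genes without Polycomb and without methylation.

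The promoters of many cell cycle genes carry CCAAT boxes, the cell cycle homology region (TTTGAA, or with C before the G, TTCGAA), or E2F elements. The 250 bases before the start are printed for 6 of the genes to show these elements: CCNA2 and CCNB1, where control cells had an EZH2 peak near the start, RRM2, where it lay further upstream, TOP2A and MKI67, which had none, and E2F1, where H3K27ac tags differed least. They come from RefSeq (GRCh38.p14) and read 5′ to 3′ along the gene. The CCAAT box and the TTTGAA and TTCGAA forms of the homology region, on either strand, are in capitals. The positions are chr4:121823884-121824133 (minus strand) for CCNA2, chr2:10122489-10122738 (plus) for RRM2, chr5:69166900-69167149 (plus) for CCNB1, chr17:40417897-40418146 (minus) for TOP2A, chr10:128126424-128126673 (minus) for MKI67 and chr20:33686386-33686635 (minus) for E2F1. For RRM2, which has a pair of listed starts, the downstream one is shown.
CCNA2: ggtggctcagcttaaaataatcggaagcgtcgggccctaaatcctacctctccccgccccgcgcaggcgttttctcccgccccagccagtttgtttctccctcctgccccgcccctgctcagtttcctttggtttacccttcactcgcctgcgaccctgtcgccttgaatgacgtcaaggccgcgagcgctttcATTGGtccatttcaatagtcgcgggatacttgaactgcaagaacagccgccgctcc
RRM2: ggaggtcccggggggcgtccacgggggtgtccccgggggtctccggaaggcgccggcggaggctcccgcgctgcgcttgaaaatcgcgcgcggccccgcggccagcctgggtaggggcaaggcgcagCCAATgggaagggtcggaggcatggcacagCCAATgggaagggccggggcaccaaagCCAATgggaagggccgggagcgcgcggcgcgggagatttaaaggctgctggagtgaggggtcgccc
CCNB1: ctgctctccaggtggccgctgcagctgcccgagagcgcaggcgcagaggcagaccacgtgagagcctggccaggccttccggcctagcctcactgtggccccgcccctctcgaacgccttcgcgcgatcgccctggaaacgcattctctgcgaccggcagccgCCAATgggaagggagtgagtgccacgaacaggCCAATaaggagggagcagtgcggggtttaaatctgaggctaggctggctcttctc
TOP2A: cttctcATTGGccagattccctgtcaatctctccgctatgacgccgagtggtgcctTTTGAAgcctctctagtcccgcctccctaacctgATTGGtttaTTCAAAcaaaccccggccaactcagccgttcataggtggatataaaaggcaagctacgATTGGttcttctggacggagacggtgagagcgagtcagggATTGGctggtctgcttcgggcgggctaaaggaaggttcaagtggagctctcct
MKI67: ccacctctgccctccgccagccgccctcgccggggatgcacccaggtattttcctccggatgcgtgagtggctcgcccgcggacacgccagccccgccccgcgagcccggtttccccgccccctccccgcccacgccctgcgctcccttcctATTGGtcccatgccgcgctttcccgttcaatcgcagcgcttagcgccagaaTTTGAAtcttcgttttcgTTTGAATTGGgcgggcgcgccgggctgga
E2F1: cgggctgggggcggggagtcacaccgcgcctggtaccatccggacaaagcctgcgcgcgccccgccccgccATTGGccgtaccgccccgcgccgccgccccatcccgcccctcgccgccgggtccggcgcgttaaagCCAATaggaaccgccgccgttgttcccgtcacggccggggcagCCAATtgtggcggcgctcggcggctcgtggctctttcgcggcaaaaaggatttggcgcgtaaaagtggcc

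From 250 bases before to 50 after the start, CCAAT occurred in all 7 genes with an entry, against 34.6% of the 35116 promoters of the table. The homology region as TTTGAA or TTCGAA occurred in CDK1, MKI67 and TOP2A, 3 of 7 genes, against 16.4% of promoters. Other forms, such as the CTTGAA in the printed CCNA2 sequence, were not searched. The other genes may therefore still carry the region. An E2F element was searched as TTCCCGC and in its other forms TTCGCGC, then TTGCCGC, and lastly TTGGCGC. It occurred in CCNB1, CDK1, E2F1 and RRM2, 4 of 7, against 13.0%, and a GC box (GGGCGG) in all 7, against 45.0%. Both strands were searched. Members were counted by gene, an element in any listed start sufficing, while the shares are of all listed starts. The E2F element and GC box of RRM2 lay only in the start that is not shown. The GRCh38 starts were not matched to the hg19 starts used for the regions. The only overlaps between different elements were 2 in MKI67, where a CCAAT box on the strand opposite to the gene runs into a TTTGAA and into a GC box. UBE2C is named without a sequence.

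H3K27ac was listed at all 8 starts in both groups, and at each of them the shEZH2 list held fewer normalised tags. Normalised tags are reads scaled by the authors to 10000000 per library. The ratio was lowest at CCNA2, TOP2A, MKI67 and UBE2C and nearest to 1 at E2F1, where the difference was within counting error. Tags were at least 2-fold lower at 4 of the 8 promoters, CCNA2, TOP2A, MKI67 and UBE2C, and RRM2 lay just short of this at 1.98-fold. The same sums, taken around the centres of the 56382 control H3K27ac regions that had a shEZH2 region, were at least 2-fold lower at 0.234% of them, and at 0.313% of the 18213 whose control region held at least 50 tags. Any lower value was seen at 12.7% and 21.0% of these regions. Among 171 pairs of single regions in which the wider was at most 25% wider than the other, which include those over the CCNA2 and RRM2 starts, 9.94% were at least 2-fold lower. The median log2 ratio of shEZH2 over control was -1.22 over the 8 promoters, 0.63 over all 56382 regions and 0.27 over the 18213. Over the 171 pairs of like width it was -0.27. Listed width can depend on the signal in each list, so pairs picked by like width need not stand for all regions. Elsewhere shEZH2 regions were mostly wider and took in more sequence, so the positive medians do not show a general rise. Relative to the median of 0.63, the promoters' log2 ratios ran from -2.64 at CCNA2 to -0.72 at E2F1. That median also holds the effect of wider shEZH2 regions. This scaling can therefore overstate the difference at a promoter of like width in both lists, such as CCNA2.

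**Figure D1:**
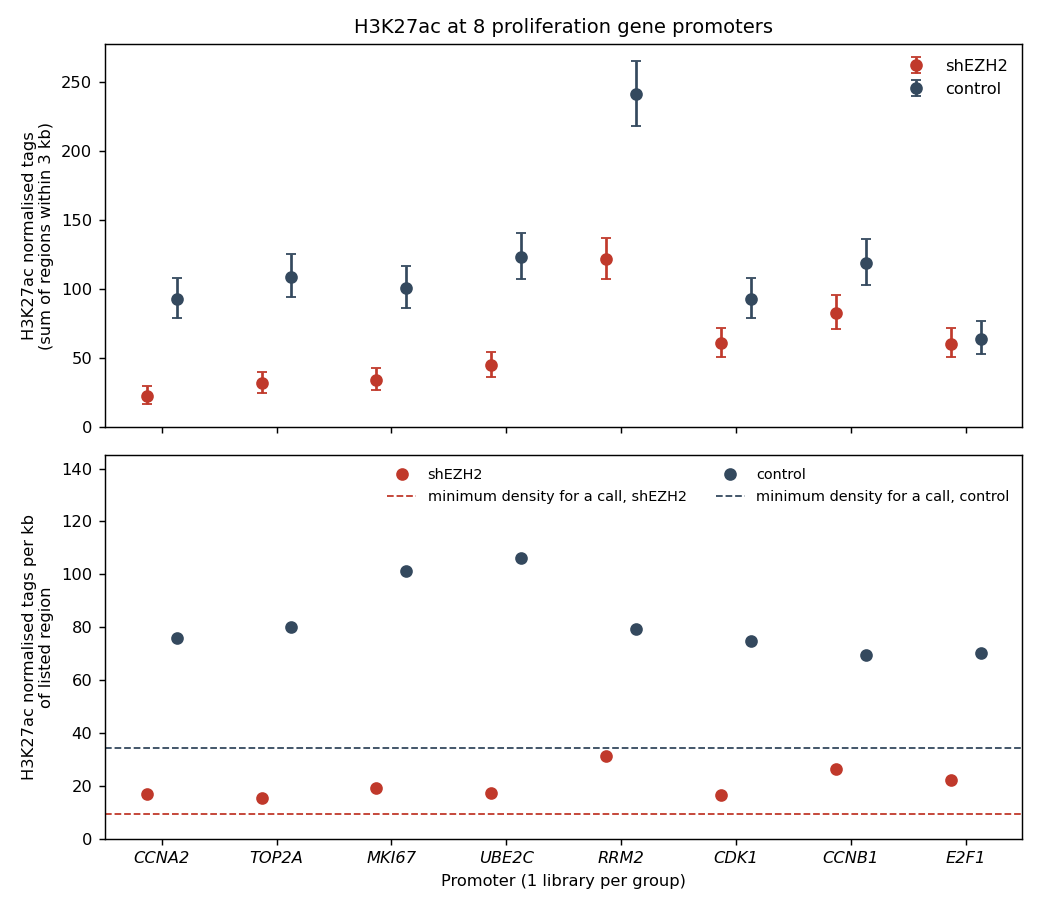
H3K27ac at the 8 promoters in shEZH2 and control, 1 library each. Upper panel: summed normalised tags of the listed regions within 3 kb, with 95% Poisson intervals for counting error; shEZH2 runs from 23.0 to 121.7 tags and control from 64.2 to 240.9. Lower panel: the same tags per kb of listed region, with dashed lines at the density each list needed for a call; all 8 shEZH2 values, at most 31.4 per kb, lie below all 8 control values, at least 69.5 per kb.

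With 1 library per group there is no spread between cultures to set these values against. All intervals are 95%, come from the numbers of reads and cover counting error only. The lists were also called differently. Control regions were joined from windows of 150 bp and shEZH2 regions from windows of 1000 bp, and a control window had to hold 3.63-fold more tags per kb to be called. At 7 of the 8 promoters, and at the upstream region of RRM2, every control region lay wholly inside a wider shEZH2 region. There the shEZH2 tags of the wider region are an upper limit for the tags over the control stretch, and the ratios given are likewise upper limits. In a population of cells, a smaller share of cells with the mark and less of the mark per cell cannot be told apart.

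Among the genes of the replication phase, CCNA2 held 23.0 H3K27ac tags in shEZH2 and 92.9 in control. The shEZH2 region ran from 408 bp before the start to 936 bp after it, and the control region from 394 bp before to 828 bp after, so the stretches were nearly the same (1344 and 1222 bp). The log2 ratio was -2.01 (-2.50 to -1.55), or 24.8% of the control tags. Of 18205 other control regions of at least 50 tags, 1 had a ratio as low, and 40 had a ratio per kb as low. CCNA2 was chosen by its low H3K27ac, so this rank describes it and is no test. The median ratio of widths was 2.10 over the 18213 regions of at least 50 tags, against 1.10 at CCNA2, so their sums are not like for like.

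RRM2 had a pair of H3K27ac regions, and they differed from each other. The region over the start held 29.3 tags in shEZH2 and 141.1 in control, a log2 ratio of -2.27 (-2.68 to -1.87). Here the shEZH2 region was the narrower (1794 and 2085 bp) and left 291 bp of the control region uncovered. The upstream region held 92.4 tags in shEZH2 and 99.8 in control, a log2 ratio of -0.11 (-0.41 to 0.19), over 2087 and 957 bp. The upstream region, which carried the EZH2 peaks of control cells, thus had total tags that differed by less than their counting error. Its control stretch lay wholly inside the wider shEZH2 region, so this ratio is an upper limit, and per kb the region held 44.3 tags in shEZH2 and 104 in control, a log2 ratio of -1.24. At the start the ratio per kb was -2.05. Over both regions RRM2 held 121.7 tags in shEZH2 and 240.9 in control, a log2 ratio of -0.99 (-1.21 to -0.76).

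E2F1 itself held 60.4 tags in shEZH2 and 64.2 in control, a log2 ratio of -0.09 (-0.46 to 0.29). The interval includes no difference, and the sign turned to 0.28 when only the region with the most tags in each list was compared. One shEZH2 region of 2715 bp covered both control regions, which were 484 and 428 bp wide and held 49.9 and 14.3 tags. Per kb of listed region E2F1 held 22.2 tags in shEZH2 and 70.4 in control.

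**Figure D2:**
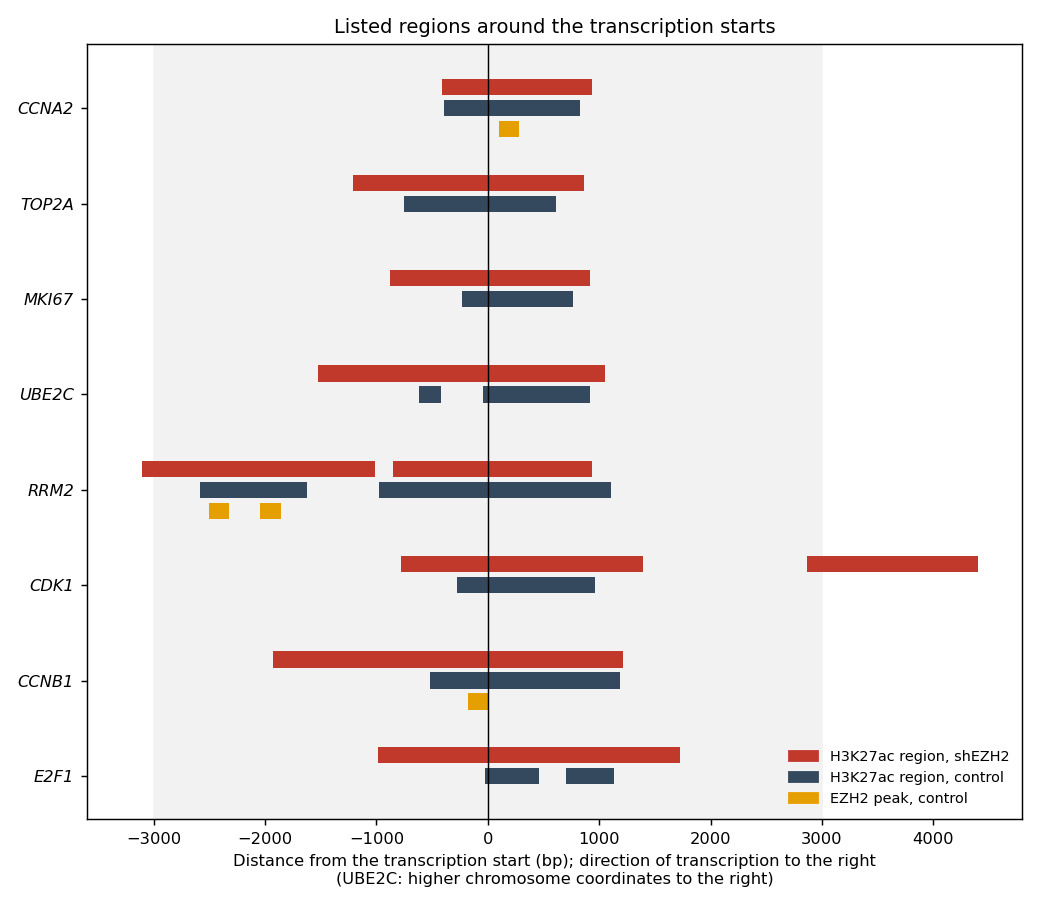
Listed H3K27ac regions in shEZH2 and control, and EZH2 peaks of control, by distance in bp from the transcription start (0), with the direction of transcription to the right except for UBE2C, drawn by chromosome coordinate. The shaded band is 3 kb on either side; shEZH2 regions contain the control regions everywhere except at the RRM2 start, and the shEZH2 list had no EZH2 peak in the band.

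Among the mitotic genes, CDK1 held 60.9 tags in shEZH2 and 92.9 in control, a log2 ratio of -0.61 (-0.95 to -0.27). The shEZH2 value included a second region that began 2862 bp after the start and held 27.5 tags, while the control list had a region of 14.3 tags that began 3155 bp after the start, just outside 3 kb. At the start alone CDK1 held 33.4 tags in shEZH2 and 92.9 in control, a log2 ratio of -1.48 (-1.89 to -1.07). The value for CDK1 therefore depended on whether the second region was counted.

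CCNB1, the partner of CDK1, held 83.0 tags in shEZH2 and 118.7 in control, a log2 ratio of -0.52 (-0.81 to -0.22). Its interval lay above that of CDK1 at the start, but both ratios are upper limits, so the 2 promoters cannot be ordered by them. Its shEZH2 region ran from 1924 bp before to 1213 bp after the start and its control region from 519 bp before to 1188 bp after, so the shEZH2 region was 1.84-fold wider, mostly upstream. UBE2C held 45.1 tags in shEZH2, in 1 region of 2578 bp, and 123.3 in control, of which 115.3 lay in a region of 963 bp over the start. Its log2 ratio was -1.45 (-1.81 to -1.10).

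The chromosome proteins TOP2A and MKI67 were alike. TOP2A held 32.0 tags in shEZH2 and 109.0 in control, a log2 ratio of -1.77 (-2.18 to -1.37). MKI67 held 34.3 tags in shEZH2 and 100.9 in control, a log2 ratio of -1.56 (-1.97 to -1.16). In the order of ratios, CCNA2, TOP2A, MKI67 and UBE2C had overlapping intervals and cannot be ranked among themselves. The interval of E2F1 overlapped those of CCNB1 and CDK1 and no others. Its ratio is an upper limit over unlike widths, so E2F1 cannot be ordered against the others by it. Per kb, E2F1 at -1.66 lay below RRM2 at -1.34 and CCNB1 at -1.39 and above the rest. In all, the interval lay below 0 at 7 of the 8 promoters. The share of all H3K27ac regions with an interval below 0 was not computed, so this count has no background beside it.

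**Figure D3:**
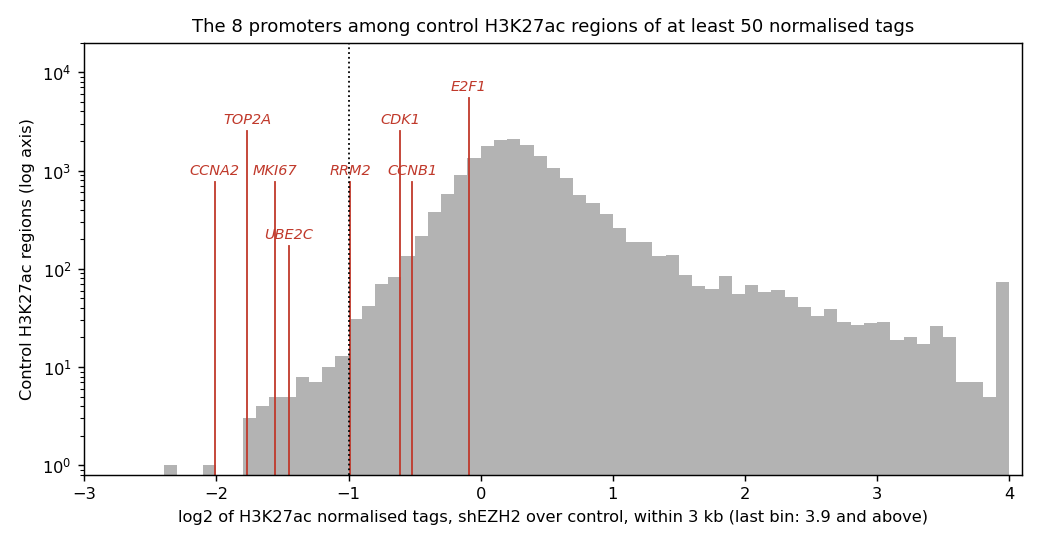
Log2 ratio of H3K27ac normalised tags within 3 kb, shEZH2 over control, at the 8 promoters (red lines) and at 18213 control H3K27ac regions of at least 50 tags (grey bars, log axis; the promoters' own regions are among them). The dotted line marks 2-fold lower; CCNA2, TOP2A, MKI67 and UBE2C lie left of it, RRM2 beside it, and E2F1 near the bulk, whose median is 0.27.

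Width and density varied less among the promoters than the totals did. Listed width was greater in shEZH2 at all 8, at 1344 to 3881 bp in shEZH2 and 912 to 3042 bp in control. The ratio of widths ran from 1.10 at CCNA2 to 2.98 at CDK1, and its median over the 18213 regions was 2.10. Tags per kb were 15.5 to 31.4 in shEZH2 and 69.5 to 106 in control. They were at least 2-fold lower at 8 of the 8 promoters, against 30.1% of the 18213 regions and 47.4% of all 56382. Since shEZH2 windows were wider, densities are not directly comparable between the lists. The log2 ratio per kb ran from -2.60 at UBE2C to -1.34 at RRM2, with a median of -2.17 over the promoters and -0.80 over the 18213 regions.

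EZH2 was listed at 3 of the 8 promoters in control cells and at none in shEZH2 cells. The whole lists held 9493 EZH2 peaks in shEZH2 and 23060 in control. An EZH2 peak lay within 3 kb of the centre of 12.4% of control H3K27ac regions of at least 50 tags in shEZH2 and of 34.7% in control, so 3 of 8 is near the share of such regions in general. At CCNA2 the control peak lay 99 to 281 bp after the start, on chromosome 4 from 122744807 to 122744989 (hg19). It held 7.5 normalised tags, or 10 reads, and was 17.3-fold above its surroundings by the authors' value. At CCNB1 it lay from 174 bp before to 8 bp after the start, on chromosome 5 from 68462663 to 68462845, with 8.25 tags (11 reads) and 13.11-fold above its surroundings. RRM2 had a pair of peaks, 2506 to 2324 bp and 2041 to 1859 bp upstream of the start, with 8.25 and 6.75 tags (11 and 9 reads), both inside the upstream H3K27ac region and not at the start.

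These 4 EZH2 peaks were weak, and their absence from the shEZH2 list could not be told from counting error. Their tags were below the median of 10.5 over all control EZH2 peaks. A count of 10 reads has a Poisson interval of 3.60 to 13.8 normalised tags, and the shEZH2 list required 10 reads, or 6.89 normalised tags, per window. EZH2 windows were narrower in shEZH2 than in control, and a call needed 45.6 tags per kb in shEZH2 and 36.9 in control. The 4 peaks held 36.9 to 45.1 tags per kb, below the density needed in shEZH2. Their tags, from wider windows, cannot be set directly against 6.89. Their scores, not scaled for depth, were 9 at CCNA2 and CCNB1 and 10 for both RRM2 peaks. These were at or just above the minimum of 9 in control and at or below the minimum of 10 in shEZH2. Of the 6472 control peaks with 6.75 to 8.25 tags, 5.32% overlapped a shEZH2 peak, against 23.1% of all 23060.

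**Figure D4:**
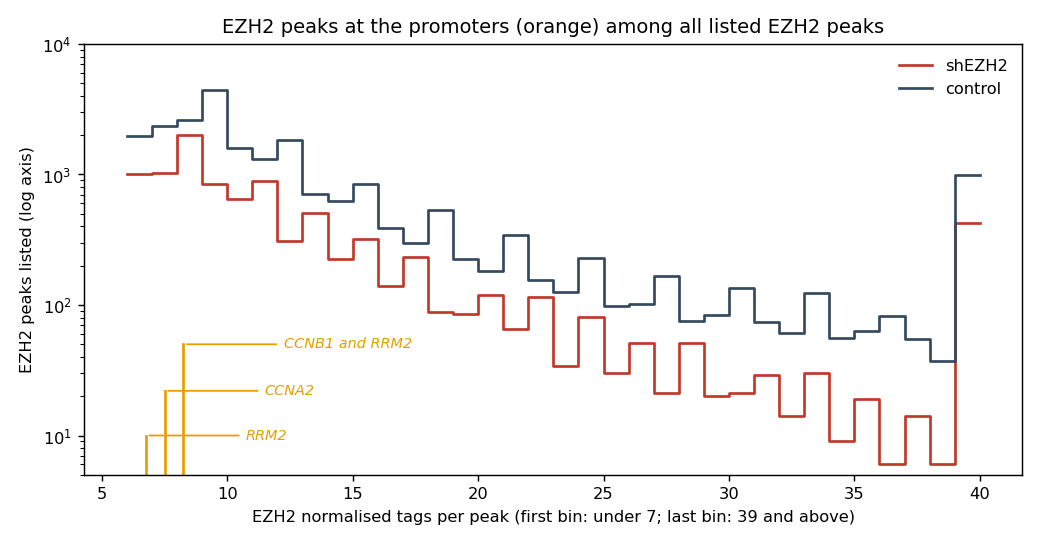
Number of listed EZH2 peaks (log axis) by normalised tags per peak in shEZH2 and control. The orange lines mark the 4 control peaks at CCNA2, CCNB1 and RRM2, at 6.75 to 8.25 tags, the low end of the control list, whose median is 10.5.

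At the 3 promoters with a listed EZH2 peak in control cells the log2 ratio of H3K27ac ran from -2.01 to -0.52, and at the 5 without one from -1.77 to -0.09. These ranges overlap, but CCNA2 and RRM2, among the 3, were chosen by their low H3K27ac, so whether the ratio goes with EZH2 was not tested. TOP2A, MKI67, UBE2C, CDK1 and E2F1 had no control EZH2 peak within 3 kb, and the nearest lay 10.3 to 44.7 kb away. A weaker EZH2 signal below the threshold would not be listed.

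H3K27me3 was listed at none of the 8 promoters in either group. The nearest region lay 10.1 to 209 kb from the start in shEZH2 and 25.8 to 1355 kb in control. Around control H3K27ac regions of at least 50 tags, H3K27me3 was listed within 3 kb of 4.14% in shEZH2 and of 2.88% in control. With shares this low in general, 0 of 8 is near the background.

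Outside the 8 genes, the 5 control regions of at least 50 tags with the lowest H3K27ac ratios were on chromosomes 1, 2, 6, 17 and 7. On chromosome 1 from 102700266 to 102700986 (hg19) the sums were 15.3 tags in shEZH2 and 76.8 in control, a log2 ratio of -2.33. On chromosome 2 from 113521714 to 113522744 they were 21.2 in shEZH2 and 73.4 in control, with the only control EZH2 peak among the 5 within 3 kb. On chromosome 17 from 76210277 to 76211001 they were 30.2 in shEZH2 and 96.3 in control. None of the 5 had H3K27me3 or a shEZH2 EZH2 peak within 3 kb, which is near the low shares of strong H3K27ac regions given above. They are given by position, as no hg19 annotation was used here.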

How the data were processed

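The submitters' processing notes name hg19, the aligner BWA 0.6.1 and the peak caller HOMER 4.1. Per the file headers, each library was called alone and no input was used. Libraries held 13331155 to 33289172 tags. EZH2 peaks have 1 width per list, a false discovery rate of 0.001 and at least 4-fold the tags of the surrounding 10 kb. Control histone lists used 150 bp windows at that rate and shEZH2 lists 1000 bp windows at a Poisson probability of 0.001, per the file headers. The deposited signal is tags per region scaled to 10000000 per library. The deposited score, not scaled for depth, served to take the upper 50% of each list, and the deposited fold over local background describes EZH2 peaks. The deposited p-value against local background, focus fraction and clonal fold were not used.

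Tags of all listed regions within 3 kb of a start were summed, and the same was done around the centre of every control H3K27ac region. Widths are the deposited region sizes. Reads were recovered from the library totals for exact Poisson intervals and for exact binomial intervals of ratios. No p-value was computed. The sums were tested on simulated lists whose tags did not depend on region width. The effect of unlike widths on the ratios was therefore not tested. The work used pandas 2.3.3, numpy 2.4.6 and scipy 1.17.1 in Python 3.11.15, with plots from matplotlib 3.10.9. Members, motifs, alternatives and the rule for other regions (the 5 lowest ratios) were chosen with earlier results of these data known. Markers of the cell line and other cell cycle genes were not examined, as no hg19 annotation was used here. Starts were the hg19 positions given with the gene list, and promoter sequences came from RefSeq for 7 of the 8 genes.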

Additional observations from a re-analysis of the deposited data

How the results depend on the processing

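H3K27ac tags were lower in shEZH2 at all 8 promoters with regions within 1 kb or 5 kb, with region centres within 3 kb, per kb, with regions clipped at 3 kb, and scaled to the tags in listed regions or to the median ratio of all regions; these scalings shifted every log2 ratio by -0.35 and -0.63. Within the upper 50% of each list by score, H3K27ac was left at 5 promoters in shEZH2 and EZH2 at 0 in control; tags were lower at 4 of the 5 that could be compared and at least 2-fold lower at 2. E2F1 reversed to 0.2755 there and also with only the strongest region of each list, as both leave out its smaller control region while the shEZH2 region covers both. The number at least 2-fold lower was 8 per kb and 7 relative to the median ratio, against 4. Both of these numbers depend on the greater width of shEZH2 regions. Under the remaining alternatives it was 4 to 6, as CDK1 or RRM2 or both passed the line under all but the 5 kb distance. Scaling to the tags in listed regions gave 5, and that scaling can hold the effect of wider shEZH2 regions too. Apart from the share per kb given above, no share of all regions was computed under any alternative for the promoters, the upper 50% included. In 171 pairs of like width the share at least 2-fold lower was 9.94%. These pairs were picked by width, which can depend on the signal, so they need not stand for all regions. CDK1 gave -1.48 under each setting that left out the second shEZH2 region: within 1 kb, by centres, with only the strongest region, and with only shEZH2 regions touching a control region, the last chosen after seeing the data. It gave -1.37 with clipped regions. RRM2 gave -2.27 within 1 kb and -0.61 with only the strongest region of each list, which is a different one in the 2 lists, and TOP2A gave -1.16 within 5 kb. EZH2 was listed in control at 2 promoters within 1 kb, against 3, as the RRM2 peaks lie further out; the other numbers of promoters with H3K27ac, EZH2 or H3K27me3 were the same within 1 kb, within 5 kb and by centres. No paired analysis was possible because each group compared held 1 library. With 1 library per group, differences between cultures cannot be separated from the knockdown, and weak EZH2 peaks lie within counting error of the threshold.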
